A study of Homo sapiens with 12 samples.

Results

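The genes of the nuclear pore and of Ran-driven transport were followed across 12 RNA-seq libraries of cultured human neuroblastoma cells. The 37 members are RANBP2, 28 other nucleoporin genes, 5 genes of the Ran cycle and 3 transport receptors. They were picked by gene name, with no cutoff on a measured value, and make up 37 of the 58735 genes in the deposited table. The 12 libraries form 4 groups of 3, SK-N-SH cells with a control hairpin (shNC in the titles) or one aimed at TSPYL5 (shL5), and a second line with either hairpin. The titles call the second line SK_N_BE2 and the cell line label calls it SH-SY5Y, so no name is used for it here. The shNC libraries carry the genotype label WT and the shL5 libraries the label of TSPYL5 knockdown, and no library had a treatment. By its title, the study is about TSPYL5, stemness and a p53 modification that involves G3BP1 and RanBP2. The labels do not say which hairpin sequence or clone was used, nor whether the 3 replicates of a group are separate cultures. Thus a p-value here speaks only to the spread among these libraries.

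The nuclear pore complex is a ring-shaped channel through the nuclear envelope, built from many copies of a set of proteins called nucleoporins. Stacked scaffold rings hold the channel, flexible nucleoporins rich in phenylalanine-glycine repeats fill it, and filaments reach into the cytoplasm and the nucleus. Direction comes from the small GTPase Ran, which RCC1 loads with GTP in the nucleus and RANGAP1 and RANBP2 help to discharge outside it, so that importins release cargo in the nucleus and exportins release it in the cytoplasm.

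The labels were checked before the results. TSPYL5 was at 13.1, 13.4 and 12.2 FPKM in the SK-N-SH shNC and 17.1, 18.3 and 17.8 FPKM in SK-N-SH shL5, which is 0.43 on the log2 scale (adjusted p = 7.45e-06) and opposite to a knockdown. In the second line it was at 24.04, 24.4 and 25.8 FPKM in shNC and 13.3, 12.4 and 12.6 FPKM in shL5 (log2 fold -0.903, adjusted p = 9.86e-09). MYCN averaged 0.0408 FPKM in the SK-N-SH shNC, 1028 in SK-N-SH shL5, 1040.4 in the second line shNC and 0 in the second line shL5. Over all tested genes, log2 levels correlated at 0.986 to 0.987 between the SK-N-SH shL5 and second line shNC libraries, and at 0.960 to 0.975 between the second line shL5 and SK-N-SH shNC libraries. Within a labelled line, shNC and shL5 libraries correlated at only 0.705 to 0.724 (SK-N-SH) and 0.692 to 0.721 (second line), against 0.987 to 0.992 between replicates. In the neuroblastoma marker lists, 9 noradrenergic genes summed to 95.1 to 108 FPKM in SK-N-SH shNC, 1699 to 1806 in SK-N-SH shL5, 1846 to 1897 in second line shNC and 68.0 to 84.1 in second line shL5. TH was at 0 reads in SK-N-SH shNC and in second line shL5. The 10 mesenchymal genes summed to 2548 to 2924, 117 to 124, 104 to 111 and 2254 to 2688 FPKM in the same order. TGFBI was the highest of them in SK-N-SH shNC and second line shL5, and VIM in the other groups. Log2 folds of the 9 tested ran from -7.32 to -0.100 in SK-N-SH and from 0.535 to 8.94 in the second line. Between the controls they ran from -7.79 to 0.289, so not all moved alike. The 6 epithelial genes summed to 19.8 to 25.2, 0.957 to 1.29, 0.982 to 1.78 and 23.9 to 29.6 FPKM, with KRT5 at 0 throughout. They did not move as one, with KRT18 highest in SK-N-SH shNC and second line shL5 and EPCAM in the other groups. Log2 folds of those tested ran from -4.10 to 0.397 in SK-N-SH and from -0.445 to 4.43 in the second line. Sums of 6 Schwann and 6 blood or endothelial genes stayed at or below 2.42 and 1.39 FPKM. Knockdown, line and cell identity therefore cannot be told apart in any comparison below, and each direction is a statement about libraries as labelled.

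Short stretches of DNA upstream of 6 members are shown. They are RefSeq sequences on GRCh38.p14 that end at or just before the annotated gene, in lower case, with CACGTG (the E-box letters that MYC-family proteins can bind) and CCGGAAG or its reverse complement (an ETS-type motif) in capitals. RANBP2 comes first, then 2 of the 5 members with an E-box, then NUP205, the inner ring gene with the highest level, and last SEC13 and POM121, which ran against most members. The windows are chr2:108719232-108719480 (plus strand), chr9:128947449-128947698 (plus), chr22:45163675-45163840 (plus), chr7:135557667-135557916 (plus), chr3:10321179-10321362 (minus) and chr7:72879107-72879356 (plus).
RANBP2: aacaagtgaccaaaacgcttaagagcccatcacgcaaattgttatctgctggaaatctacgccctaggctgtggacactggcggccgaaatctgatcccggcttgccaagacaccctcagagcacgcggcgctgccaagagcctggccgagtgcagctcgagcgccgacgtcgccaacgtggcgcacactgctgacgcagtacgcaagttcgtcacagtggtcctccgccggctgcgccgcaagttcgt
NUP188: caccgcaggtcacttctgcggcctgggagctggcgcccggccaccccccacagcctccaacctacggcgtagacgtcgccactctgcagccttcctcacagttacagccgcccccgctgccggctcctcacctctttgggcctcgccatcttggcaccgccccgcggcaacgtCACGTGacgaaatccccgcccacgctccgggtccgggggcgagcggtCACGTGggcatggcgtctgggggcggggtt
NUP50: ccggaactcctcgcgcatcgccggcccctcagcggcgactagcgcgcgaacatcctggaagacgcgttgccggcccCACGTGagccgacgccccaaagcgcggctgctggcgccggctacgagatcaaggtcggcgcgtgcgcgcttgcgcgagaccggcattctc
NUP205: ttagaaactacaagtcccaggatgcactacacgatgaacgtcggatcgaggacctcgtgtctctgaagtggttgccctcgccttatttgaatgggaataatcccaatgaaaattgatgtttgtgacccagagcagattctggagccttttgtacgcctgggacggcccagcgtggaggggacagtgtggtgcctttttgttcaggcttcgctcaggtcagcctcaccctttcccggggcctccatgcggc
SEC13: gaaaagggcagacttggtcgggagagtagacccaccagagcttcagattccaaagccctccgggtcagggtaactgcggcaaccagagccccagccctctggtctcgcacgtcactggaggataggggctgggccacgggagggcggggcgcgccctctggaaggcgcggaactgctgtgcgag
POM121: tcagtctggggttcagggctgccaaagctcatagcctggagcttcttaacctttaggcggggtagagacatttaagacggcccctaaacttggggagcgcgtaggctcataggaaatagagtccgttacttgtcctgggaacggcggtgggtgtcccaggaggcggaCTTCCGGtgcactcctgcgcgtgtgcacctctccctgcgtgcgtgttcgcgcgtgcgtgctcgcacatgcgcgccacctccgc
Of the 37 members, 33 had RefSeq windows of 300 bases (250 before the start and 50 after it), some with more than 1 start. The E-box letters CACGTG, which reads the same on both strands, was found for 5 of the 33 (15.2%), namely NUP188, NUP50, RAN, RCC1 and XPO1, against 12.8% of the 10140 tested genes with a window. The ETS-type letters, searched on both strands, were found for 13 of 33 (39.4%) against 22.3% of tested genes, and these 13 include SEC13, SEH1L and POM121. In SEC13 and NUP50 the ETS-type match lies in the window but beyond the stretch shown, so it is not in capitals above. The NRF1 palindrome was found for 3 (9.09% against 2.71%), CCAAT on either strand for 36.4% against 43.2%, and the GC box GGGCGG on either strand for 57.6% against 77.5%. A gene counted if any of its windows matched, so genes with more starts had more chances. By window, the GC box was in 52.2% of the 46 member windows against 45.0% of all 35116 windows, tested genes or not. CCAAT was in 32.6% against 34.6%, the E-box in 10.9% against 7.26%, ETS-type letters in 30.4% against 10.3% and NRF1 in 6.52% against 1.24%. None of the searched letters was found in the RANBP2 window. These matches describe letters in a window and not bound sites, and whether they bear on the members' levels was not tested.

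All 37 members were expressed in every library and all passed the filter of a mean of at least 0.5 FPKM over the 12 libraries that 15856 genes passed. FPKM (fragments per kilobase of gene, scaled for sequencing depth) is a level per gene length, so members can be set against each other only roughly. That length covers all annotated exons of a gene together, so a gene with many little-used exons reads low. Each order of members by level below depends in part on it. The lowest single value was 0.943, 1.61 and 1.68 FPKM for NUP210 in second line shL5, with 139 reads behind the lowest library, and the highest belonged to RAN, with up to 13076 reads. Library depth was 15425460 to 19249018 reads. A gene is called higher or lower where the adjusted p of limma's test on log2(FPKM + 1) was under 0.05, and that scale understates the change of low genes. In bulk RNA a lower level can mean fewer cells of a kind or less RNA per cell, which cannot be told apart.

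In SK-N-SH shL5, 29 of 37 members were higher than in SK-N-SH shNC, 4 were lower (SEC13, AHCTF1, SEH1L and POM121) and 4 did not pass (NUP214, TPR, NUP133 and NUTF2). Of all tested genes, 40.7% were called higher and 39% lower, so being called at all was common (79.8%). The median log2 fold was 0.78 over the members and 0.02 over all tested genes, and 13 members were called with a log2 fold of at least 1 on the log2(FPKM + 1) scale, against 15.3% of tested genes, and none with one of -1 or below, against 15.8%. That scale understates the ratio of mean FPKM, so a member with a ratio above 2 can miss this count. Libraries of the groups did not overlap for 34 of 37 members, against 81.5% of genes.

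In the second line shL5 against its control the directions were mostly the other way, with 26 members lower, 6 higher (SEC13, AHCTF1, SEH1L, POM121, NUTF2 and NUP133) and 5 not past the threshold (NUP214, NUP88, NUP98, NUP37 and KPNB1). Over all tested genes, 80% were called, 40.2% lower and 39.9% higher. The median log2 fold was -0.72 over the members and -0.016 over all tested genes. Log2 folds of -1 or below were called for NUP210, NUP205, RCC1 and RANBP1 (4 members, against 14.8% of genes), and SEC13 alone of the members had one of at least 1 (against 17%). The libraries did not overlap for 33 of 37 members, against 81.4% of genes. FPKM was also rescaled to an equal sum in each library, and the recovered reads were fitted with voom. The median of all genes then shifted by -0.124 and -0.17. The split became 4 higher with 29 lower and 4 higher with 30 lower, and NUP133 and NUTF2 lost their calls. Of the 15856 tested genes, 5658 were higher and 6946 lower with rescaling, and 5582 higher and 7091 lower with voom. The main fit had 6323 higher and 6369 lower.

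**Figure D1:**
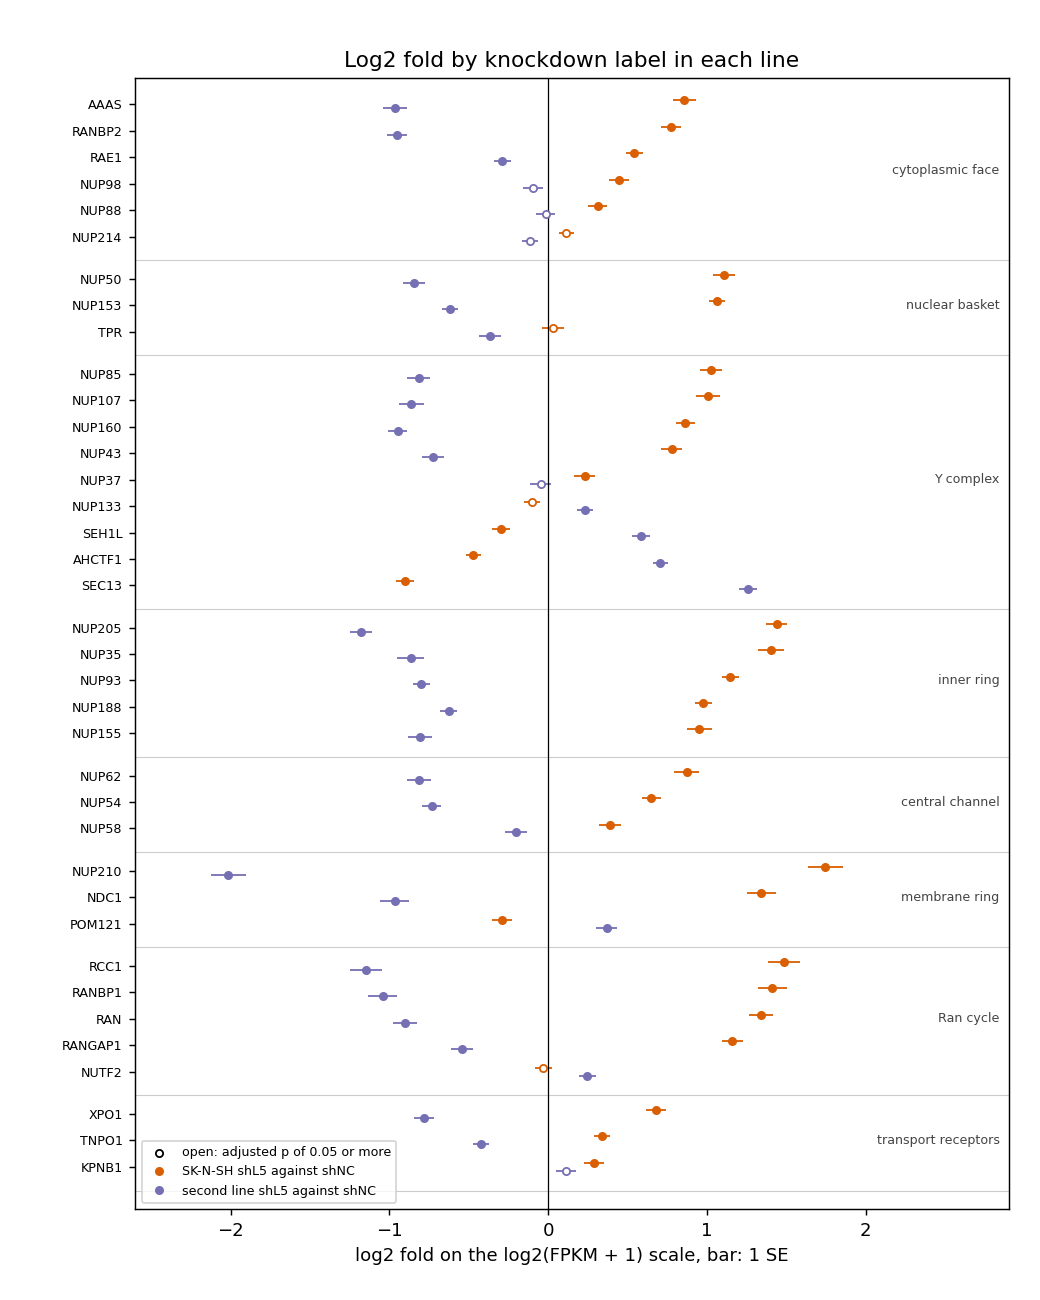
Log2 fold (x axis, on the log2(FPKM + 1) scale, bar: 1 SE) of each of the 37 members by role (y axis) in SK-N-SH shL5 against control (orange) and second line shL5 against control (purple), n = 3 libraries a group, open points not past an adjusted p of 0.05. Most orange points lie right of 0 and most purple points left of it, and SEC13, AHCTF1, SEH1L and POM121 lie the other way.

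RANBP2, the large cytoplasmic filament protein that binds Ran and acts as a SUMO E3 ligase, lies at chr2:108719481-108785811 on the plus strand of GRCh38. It was at 9.75, 8.47 and 8.71 FPKM in SK-N-SH shNC, 16.9, 16.2 and 15.1 in SK-N-SH shL5, 15.5, 16.1 and 16.8 in second line shNC and 7.56, 7.68 and 8.35 in second line shL5. The SK-N-SH shL5 and second line shNC libraries were high, the other 6 low, and neither labelled line had overlapping groups. Group means were 8.98 ± 0.683, 16.1 ± 0.926, 16.1 ± 0.636 and 7.86 ± 0.429 FPKM (SD, n = 3). In SK-N-SH the shL5 libraries were 1.79-fold higher (log2 fold 0.77, SE 0.062, adjusted p = 3.07e-07). In the second line they were 2.05-fold lower (log2 fold -0.95, SE 0.062, adjusted p = 4.59e-08). Nearly identical RGPD genes arose from copies of RANBP2. None of the 7 RGPD genes looked up had a mean of 0.5 FPKM over the 12 libraries, so none was tested, but reads that fit both could have been counted to either, so RANBP2's level is uncertain to that extent.

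Of the other 5 genes of the cytoplasmic face, AAAS had the widest fold in both lines, and NUP214 had the smallest in SK-N-SH and NUP88 in the second line. AAAS encodes aladin, which docks on the membrane nucleoporin NDC1. It was at 12.1, 10.9 and 11.9 FPKM in SK-N-SH shNC, 20.6, 21.8 and 23.3 in SK-N-SH shL5, 20.2, 22.7 and 22.5 in second line shNC and 11.9, 10.2 and 10.1 in second line shL5. High and low libraries split as for RANBP2, with log2 folds of 0.86 (adjusted p = 5.61e-07, SE 0.074) in SK-N-SH and -0.96 (adjusted p = 1.90e-07, SE 0.074) in the second line. NUP214, a platform for mRNA export and for the exportin XPO1, was at 5.303, 5.27 and 5.198 FPKM in SK-N-SH shNC, 5.89, 5.43 and 6.01 in SK-N-SH shL5, 6.38, 5.96 and 5.99 in second line shNC and 5.74, 5.69 and 5.27 in second line shL5. Its 12 values spanned a narrow range and neither fold passed (0.11, adjusted p = 0.0512, and -0.11, adjusted p = 0.0508). In SK-N-SH it passed without shL5 replicate 2 (0.15, adjusted p = 0.0223) and with voom (0.19, adjusted p = 0.00803). In the second line it passed without shL5 replicate 1 (-0.13, adjusted p = 0.0447), with rescaling (-0.26, adjusted p = 0.00303) and with voom (-0.297, adjusted p = 1.94e-04). NUP88, the partner of NUP214, NUP98, a mobile repeat nucleoporin whose gene also encodes the scaffold protein NUP96, and RAE1, an mRNA export factor bound by NUP98, had log2 folds of 0.31, 0.44 and 0.54 in SK-N-SH, all past the threshold. In the second line RAE1 was lower (-0.29), and NUP88 (-0.015) and NUP98 (-0.095) did not pass, though with rescaling (-0.15 and -0.24) and with voom (-0.18 and -0.26) both were called lower. Exons of NUP88 share 8.84% and 9.82% of their bases with RABEP1 and RPAIN on the other strand, and since strand use in counting is not given, those reads cannot be told apart.

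The nuclear basket genes did not move as one. NUP50, a cofactor that speeds importin recycling, was at 7.58, 6.397 and 6.03 FPKM in SK-N-SH shNC, 15.5, 15.8 and 14.98 in SK-N-SH shL5, 15.6, 15.8 and 15.6 in second line shNC and 8.81, 7.71 and 8.34 in second line shL5. The SK-N-SH shL5 and second line shNC libraries were all above the other 6, with log2 folds of 1.105 (adjusted p = 3.45e-08, SE 0.070) and -0.85 (adjusted p = 3.57e-07, SE 0.070). TPR, which forms the basket filaments, was at 22.7, 19.6 and 20.5 FPKM in SK-N-SH shNC, 22.3, 21.9 and 19.97 in SK-N-SH shL5, 22.6, 21.9 and 22.4 in second line shNC and 17.7, 15.6 and 18.1 in second line shL5. The SK-N-SH groups overlapped (0.031, adjusted p = 0.689, SE 0.069) and only the second line shL5 libraries lay below the rest (-0.37, adjusted p = 4.23e-04, SE 0.069). NUP153, which anchors the basket and binds importins, was 2.19-fold higher in SK-N-SH shL5 and 1.58-fold lower in second line shL5 (log2 folds 1.06 and -0.62, both past the threshold). Mean levels of TPR and NUP153 were 20.9 ± 1.63 and 10.3 ± 0.758 FPKM in SK-N-SH shNC and 21.4 ± 1.24 and 22.6 ± 0.386 FPKM in SK-N-SH shL5 (SD, n = 3).

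The Y complex, the outer scaffold ring of the pore, divided. Of its 9 genes, 5 were higher in SK-N-SH shL5 (NUP85, NUP107, NUP160, NUP43 and NUP37), 3 were lower (SEC13, AHCTF1 and SEH1L) and NUP133 did not pass. Among all tested genes, 40.7% were higher there and 39% lower. NUP85, which pairs with SEH1L, was at 6.89, 6.32 and 5.94 FPKM in SK-N-SH shNC, 13.9, 13.9 and 14.2 in SK-N-SH shL5, 14.8, 15.97 and 16.2 in second line shNC and 9.54, 8.17 and 7.76 in second line shL5. Its log2 folds were 1.02 (adjusted p = 7.93e-08, SE 0.071) and -0.81 (adjusted p = 6.06e-07, SE 0.071). NUP107, NUP160 and NUP43 had log2 folds of 1.01, 0.86 and 0.78 in SK-N-SH and -0.86, -0.95 and -0.72 in the second line, all past the threshold. NUP37 was higher by 0.23 in SK-N-SH and its -0.047 in the second line did not pass. Exons of NUP43 share 5.03% of bases with PCMT1 on the other strand.

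SEC13 (chr3:10293131-10321178, minus strand) ran opposite to these partners. It was at 19.9, 20.3 and 19.8 FPKM in SK-N-SH shNC, 10.1, 9.69 and 10.97 in SK-N-SH shL5, 9.32, 10.2 and 9.48 in second line shNC and 23.1, 24.6 and 25.9 in second line shL5. The SK-N-SH shNC and second line shL5 libraries were high, the reverse of RANBP2, without overlap. SEC13 was 1.95-fold lower in SK-N-SH shL5 (log2 fold -0.903, SE 0.057, adjusted p = 3.25e-08) and 2.53-fold higher in second line shL5 (log2 fold 1.26, SE 0.057, adjusted p = 1.64e-09). It ranked 1 of 9 by level in the complex in SK-N-SH shNC and in second line shL5, and 7 of 9 in the other groups. SEC13 also serves in the COPII coat of vesicles leaving the endoplasmic reticulum and, with SEH1L, in the GATOR2 complex of nutrient sensing.

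AHCTF1, also called ELYS, brings Y complexes to chromatin as nuclei reform after mitosis. It was at 15.9, 14.7 and 15.4 FPKM in SK-N-SH shNC, 10.7, 10.98 and 10.7 in SK-N-SH shL5, 10.7, 10.8 and 11.2 in second line shNC and 18.6, 17.5 and 19.3 in second line shL5. The groups split as for SEC13 (-0.47, adjusted p = 1.86e-06, SE 0.046 in SK-N-SH and 0.71, adjusted p = 4.71e-08, SE 0.046 in the second line). SEH1L had group means of 4.78 ± 0.189, 3.71 ± 0.176, 3.86 ± 0.265 and 6.29 ± 0.3297 FPKM, with log2 folds of -0.296 (adjusted p = 4.77e-04, SE 0.057) and 0.59 (adjusted p = 1.48e-06, SE 0.057). It was the gene of the complex with the lowest level in all 4 groups. NUP133, which with NUP107 forms the stem, was at 19.7, 18.3 and 18.95 FPKM in SK-N-SH shNC, 17.8, 18.3 and 16.8 in SK-N-SH shL5, 18.4, 18.4 and 16.9 in second line shNC and 21.5, 20.3 and 21.7 in second line shL5. The second line shL5 libraries lay above the second line shNC (0.23, adjusted p = 0.00137, SE 0.051), and the SK-N-SH groups overlapped (-0.1001, adjusted p = 0.0935, SE 0.051). Summed over the 9 genes, the complex was at 91.9 to 97.1 FPKM in SK-N-SH shNC, 106 to 109 in SK-N-SH shL5, 106 to 110.1 in second line shNC and 103 to 112 in second line shL5.

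**Figure D2:**
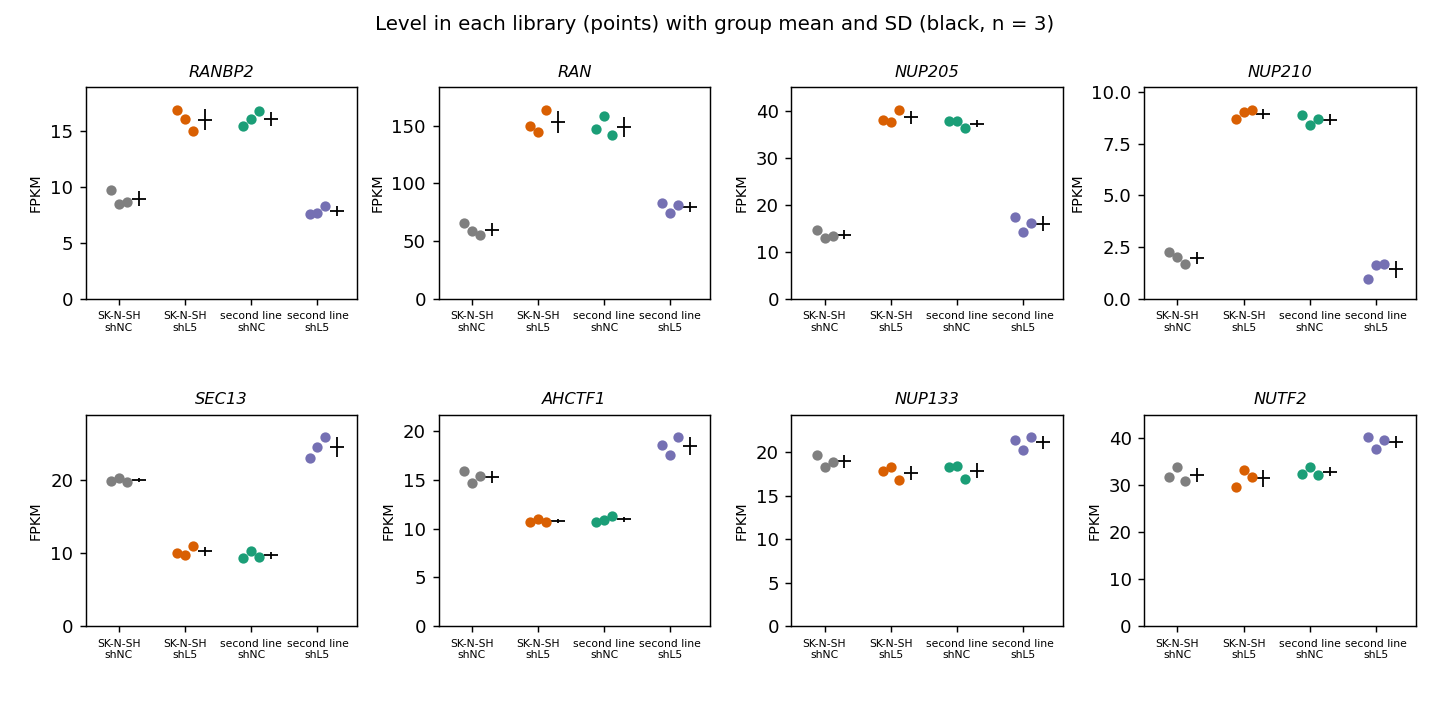
FPKM (y axis, linear from 0) in each of the 3 libraries of 4 groups (x axis) for 8 members, with the group mean and SD in black. RANBP2, RAN, NUP205 and NUP210 were high in SK-N-SH shL5 and second line shNC, SEC13 and AHCTF1 were high in the other groups, and NUP133 and NUTF2 differed little apart from second line shL5.

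All 5 inner ring genes were higher in SK-N-SH shL5 (against 40.7% of tested genes) and lower in second line shL5 (against 40.2%), by log2 folds of 0.95 to 1.44 and -1.18 to -0.63. The inner ring lines the channel and ties the scaffold to the membrane. NUP205 (chr7:135557919-135648757, plus strand), its large solenoid protein, was at 14.7, 13.01 and 13.3 FPKM in SK-N-SH shNC, 38.2, 37.7 and 40.2 in SK-N-SH shL5, 37.8, 37.8 and 36.4 in second line shNC and 17.5, 14.3 and 16.1 in second line shL5. The 2 high groups lay at or above 36.4 FPKM and the low ones at or below 17.5 FPKM (1.44, adjusted p = 2.79e-09, SE 0.068, and -1.18, adjusted p = 1.50e-08, SE 0.068). NUP155, which contacts both membrane and scaffold, was at 6.07, 5.21 and 4.79 FPKM in SK-N-SH shNC, 11.6, 10.9 and 11.2 in SK-N-SH shL5, 11.5, 11.8 and 11.2 in second line shNC and 6.803, 5.595 and 6.13 in second line shL5. Its split was the same (0.95, adjusted p = 3.07e-07, SE 0.077, and -0.81, adjusted p = 1.33e-06, SE 0.077). NUP35, which bends membrane at the pore, had the largest ratio of the ring in SK-N-SH, 3.303-fold higher in shL5. NUP93, the hub that recruits the repeat nucleoporins, was 2.55-fold higher, and NUP188, the relative of NUP205, 2.07-fold higher. Summed over the 5 genes, the ring was at 32.6 to 36.5 FPKM in SK-N-SH shNC, 84.9 to 90.04 in SK-N-SH shL5, 83.7 to 86.7 in second line shNC and 41.1 to 45.8 in second line shL5.

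The 3 central channel genes, whose repeat domains form the permeability barrier as one trimer, moved in one direction to different degrees. NUP62 was at 8.396, 7.38 and 6.92 FPKM in SK-N-SH shNC, 13.99, 13.9 and 16.2 in SK-N-SH shL5, 16.5, 16.6 and 15.2 in second line shNC and 9.098, 8.13 and 8.999 in second line shL5. Groups within each labelled line did not overlap (0.87, adjusted p = 7.22e-07, SE 0.077, and -0.81, adjusted p = 1.34e-06, SE 0.077). Its exons share 10.4% of bases with ATF5 on the other strand. NUP58 was at 5.15, 5.51 and 5.12 FPKM in SK-N-SH shNC, 7.25, 6.93 and 7.41 in SK-N-SH shL5, 8.03, 8.33 and 8.08 in second line shNC and 6.57, 6.34 and 8.06 in second line shL5. The third second line shL5 library reached the second line shNC values, so those groups overlapped, though the fold passed (0.39, adjusted p = 3.44e-04, SE 0.071 in SK-N-SH and -0.202, adjusted p = 0.0215, SE 0.071 in the second line). The call in the second line was lost without shNC replicate 2 (adjusted p = 0.0624) or shL5 replicate 1 (0.0751) or 2 (0.0927), or with only the groups compared (0.0633). NUP54 lay between them, with log2 folds of 0.65 and -0.73.

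Membrane ring genes gave both the widest change and an opposite one. NUP210 (chr3:13316235-13420309, minus strand), a membrane-spanning nucleoporin known to vary between cell types, was at 2.24, 2.01 and 1.67 FPKM in SK-N-SH shNC, 8.67, 9.01 and 9.13 in SK-N-SH shL5, 8.91, 8.38 and 8.67 in second line shNC and 0.943, 1.61 and 1.68 in second line shL5. Its SK-N-SH shL5 and second line shNC libraries were at 8.38 FPKM or more and the others at 2.24 or less. The ratio of means was 4.53-fold higher in SK-N-SH shL5 (log2 fold 1.75, SE 0.11, adjusted p = 3.65e-08) and 6.12-fold lower in second line shL5 (log2 fold -2.02, SE 0.11, adjusted p = 9.57e-09), the widest of the 37 members in both. NDC1, which anchors the scaffold in the membrane, had log2 folds of 1.34 (adjusted p = 6.36e-08, SE 0.091) and -0.97 (adjusted p = 1.19e-06, SE 0.091). POM121, an early assembly factor in the membrane, was at 11.4, 11.7 and 10.8 FPKM in SK-N-SH shNC, 9.74, 8.57 and 8.86 in SK-N-SH shL5, 10.2, 8.79 and 8.79 in second line shNC and 12.7, 12.02 and 11.9 in second line shL5. It was lower in SK-N-SH shL5 (-0.29, adjusted p = 0.00136, SE 0.064) and higher in second line shL5 (0.37, adjusted p = 2.32e-04, SE 0.064). POM121C, its near copy, was at 17.9 ± 0.1304, 10.4 ± 0.126, 10.3 ± 0.317 and 21.03 ± 1.101 FPKM (SD, n = 3) and moved the same way (-0.72 and 0.96). Reads shared by the pair could be split either way, and 18.8% of POM121 exon bases overlap the pseudogene NSUN5P2 on the other strand, so POM121's own share is uncertain.

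RAN had the highest level of the 37 members in all 4 groups. In SK-N-SH shL5, 4 of the 5 Ran cycle genes were called higher with a log2 fold of at least 1, against 15.3% of tested genes. RAN (chr12:130871879-130877678, plus strand) was at 65.8, 58.6 and 55.2 FPKM in SK-N-SH shNC, 150.2, 145 and 164 in SK-N-SH shL5, 147, 159 and 142 in second line shNC and 82.7, 74.7 and 81.3 in second line shL5. The high and low groups did not overlap (1.34, adjusted p = 1.19e-08, SE 0.075 in SK-N-SH and -0.899, adjusted p = 4.02e-07, SE 0.075 in the second line). Pseudogene copies of RAN exist, so a part of its reads could lie elsewhere. RCC1, the nuclear exchange factor, was at 14.1, 10.9 and 10.9 FPKM in SK-N-SH shNC, 34.5, 32.97 and 37.5 in SK-N-SH shL5, 34.8, 34.3 and 33.5 in second line shNC and 16.98, 13.7 and 14.03 in second line shL5. It was 2.93-fold higher in SK-N-SH shL5 and 2.29-fold lower in second line shL5 (1.48, adjusted p = 6.01e-08, SE 0.0997, and -1.15, adjusted p = 5.72e-07, SE 0.0997). Its exons share 6.22% of bases with SNHG3 on the same strand. RANBP1, which helps RANGAP1 act, was 2.71-fold higher and 2.08-fold lower (log2 folds 1.41 and -1.04), and 8.5% of its exon bases lie over TRMT2A on the other strand.

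RANGAP1, the GTPase activator that is held on RANBP2 when modified by SUMO, was at group means of 14.003 ± 1.52, 32.4 ± 0.468, 36.1 ± 1.01 and 24.5 ± 1.18 FPKM. Its folds were 1.16 (adjusted p = 1.66e-08, SE 0.067) and -0.54 (adjusted p = 1.39e-05, SE 0.067). NUTF2, which carries Ran back into the nucleus, stood apart from the rest of the cycle. It was at 31.7, 33.8 and 30.8 FPKM in SK-N-SH shNC, 29.6, 33.1 and 31.6 in SK-N-SH shL5, 32.4, 33.9 and 32.2 in second line shNC and 40.1, 37.8 and 39.5 in second line shL5. The first 3 groups overlapped (-0.030, adjusted p = 0.613, SE 0.052 in SK-N-SH), and the second line shL5 libraries were above them (0.25, adjusted p = 0.00105, SE 0.052).

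The 3 transport receptors were higher in SK-N-SH shL5 by log2 folds of 0.29 to 0.68, where 40.7% of tested genes were called higher. XPO1, the exportin for proteins with a leucine-rich export signal, was at 19.9, 17.1 and 17.2 FPKM in SK-N-SH shNC, 29.7, 29.3 and 29.5 in SK-N-SH shL5, 28.4, 29.2 and 29.8 in second line shNC and 17.04, 15.2 and 17.4 in second line shL5. It was 1.63-fold higher in SK-N-SH shL5 (log2 fold 0.68, SE 0.063, adjusted p = 1.12e-06) and 1.76-fold lower in second line shL5 (log2 fold -0.78, SE 0.063, adjusted p = 3.13e-07). KPNB1, importin beta, was at 54.6, 50.9 and 45.1 FPKM in SK-N-SH shNC, 61.1, 59.6 and 63.2 in SK-N-SH shL5, 65.7, 66.2 and 63.8 in second line shNC and 69.9, 69.1 and 72.9 in second line shL5. SK-N-SH shNC was the low group here (0.29, adjusted p = 0.00113, SE 0.062), and the second line fold of 0.11 did not pass (adjusted p = 0.114), but passed with only the groups compared (adjusted p = 0.0495). TNPO1, the importer of many RNA-binding proteins, had log2 folds of 0.34 (adjusted p = 7.41e-05, SE 0.051) and -0.42 (adjusted p = 1.12e-05, SE 0.051).

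**Figure D3:**
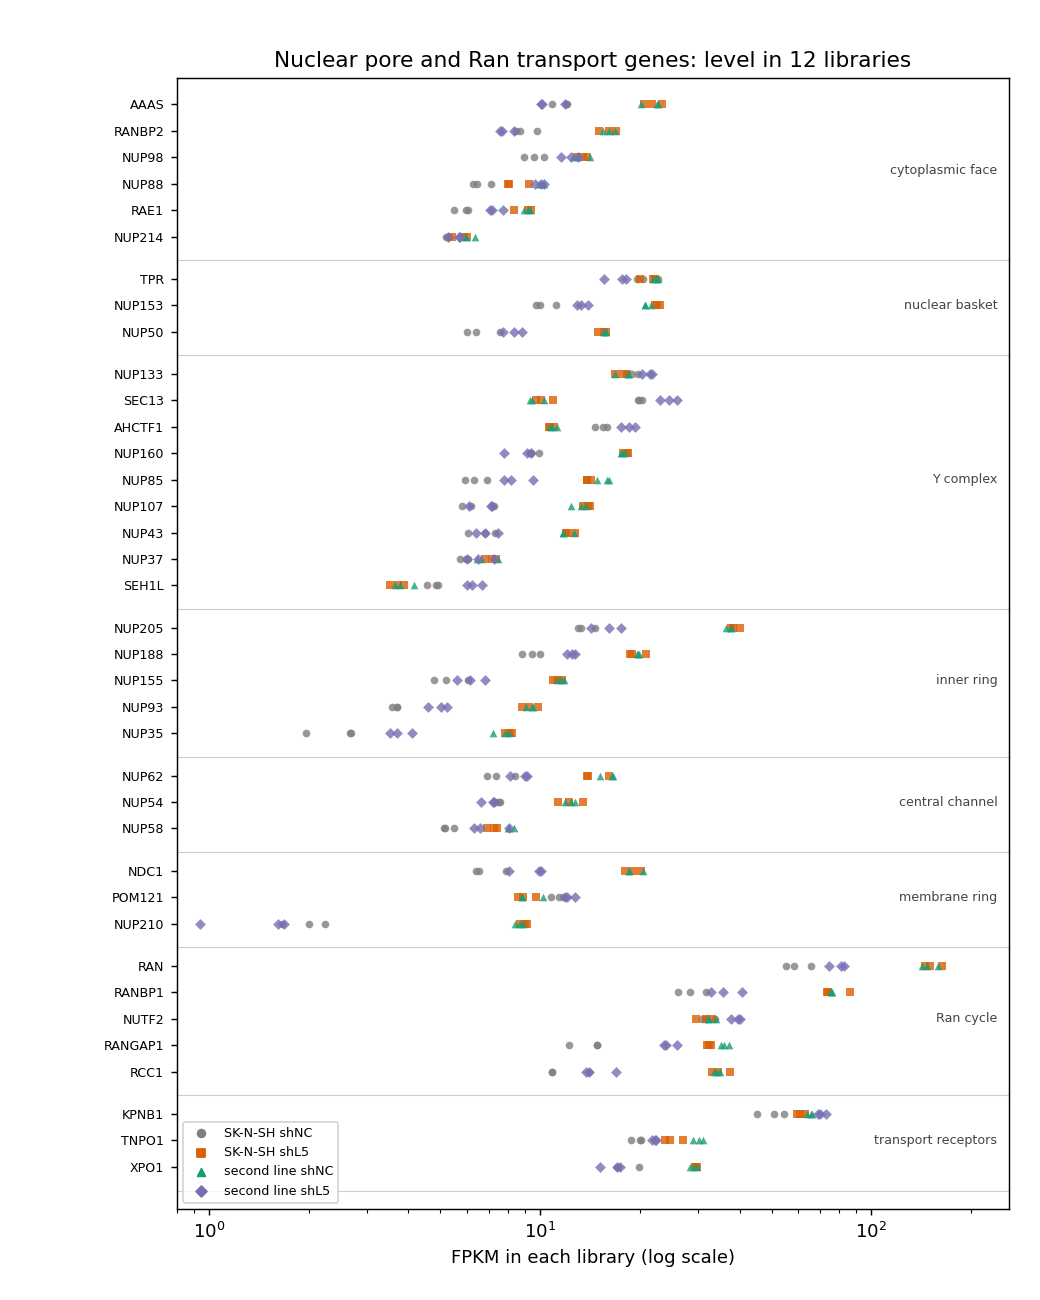
FPKM (x axis, log scale) of each of the 37 members (y axis, by role, in order of mean level) in 12 libraries, with 3 points a group. RAN lies furthest right in every group, and the SK-N-SH shL5 and second line shNC points of most genes fall together, apart from the other 6.

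Set in order, the group means of 29 of the 37 members (78.4%, against 42.7% of tested genes) were highest in SK-N-SH shL5 and second line shNC. For 5 members, NUP133, SEH1L, SEC13, AHCTF1 and POM121 (13.5%, against 41.1% of tested genes), SK-N-SH shNC and second line shL5 were highest. For NUP88, NUTF2 and KPNB1 (8.11%, against 4.55% of tested genes) the 2 second line groups were highest. The ratio of the highest to the lowest group mean ran from 1.16 for NUP214 to 6.32 for NUP210.

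Between the control libraries of the lines, 30 members were higher in the second line and 4 lower (SEC13, AHCTF1, POM121 and SEH1L), where 79.6% of genes were called, 40.7% higher and 38.9% lower. This comparison shares the SK-N-SH shNC with the first and the second line shNC with the second, so its values are not separate evidence. RANBP2 differed by 0.78 (adjusted p = 2.74e-07, SE 0.062), RAN by 1.31 (adjusted p = 1.48e-08, SE 0.075) and SEC13 by -0.98 (adjusted p = 1.59e-08, SE 0.057). NUP37's call was lost without SK-N-SH shNC replicate 1 (0.16, adjusted p = 0.0813) or 2 (0.18, adjusted p = 0.0552), without second line shNC replicate 2 (0.12, adjusted p = 0.129) and with rescaling (0.19, adjusted p = 0.0575).

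SK-N-SH shL5 and second line shNC, which share neither line nor hairpin, had close member levels. They were compared because earlier results of these data had shown the libraries to be alike across the line labels. No member was called higher and 2 were called lower in SK-N-SH shL5, where 5.39% of genes were called, 2.26% higher and 3.12% lower. All 37 log2 folds lay between -0.25 and 0.096. RANBP2 differed by -0.0086 (adjusted p = 0.984, SE 0.062), which misses the threshold and does not show equal levels. The called members were TNPO1, at 27.04, 24.6 and 23.9 FPKM against 30.1, 28.9 and 30.99 FPKM (-0.25, adjusted p = 0.0186, SE 0.051), and NUP88, at 8.001, 8.07 and 9.24 against 10.3, 9.95 and 10.1 FPKM (-0.24, adjusted p = 0.0459, SE 0.060). Both differences were small and neither pair of groups overlapped. Without SK-N-SH shL5 replicate 2, or without second line shNC replicate 1 or 3, no member was called. With only the groups compared, TNPO1 (adjusted p = 0.0647) and NUP88 (adjusted p = 0.0871) both lost their call and RANGAP1 was called lower (-0.15, adjusted p = 0.0482). TNPO1 also lost its call with rescaling (adjusted p = 0.0983).

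Between second line shL5 and SK-N-SH shNC, 23 members were higher and 3 lower, where 44.1% of genes were called, 26.9% higher and 17.2% lower. The 5 with the widest folds were RANGAP1 (0.77, adjusted p = 1.37e-05, SE 0.067), NUP88 (0.53, adjusted p = 5.80e-05, SE 0.060), KPNB1 (0.49, adjusted p = 1.18e-04, SE 0.062), NUP35 (0.48, adjusted p = 8.99e-04, SE 0.083) and RAN (0.41, adjusted p = 0.00128, SE 0.075), all higher in second line shL5. The lower members were NUP210 (-0.31, adjusted p = 0.0412, SE 0.11), TPR (-0.28, adjusted p = 0.00756, SE 0.069) and RANBP2 (-0.17, adjusted p = 0.0466, SE 0.062). RANBP2's call was lost without SK-N-SH shNC replicate 1 (-0.11, adjusted p = 0.166) or 3 (-0.19, adjusted p = 0.0666), or without second line shL5 replicate 1 (-0.14, adjusted p = 0.123) or 2 (-0.16, adjusted p = 0.118). NUP210's call was lost without SK-N-SH shNC replicate 1 (-0.25, adjusted p = 0.134) or 2 (-0.30, adjusted p = 0.0928), or without second line shL5 replicate 1 (-0.16, adjusted p = 0.105). The split moved with scaling, to 15 higher and 7 lower with FPKM rescaled to an equal sum. With voom it was 19 higher and 7 lower. The medians of all genes shifted by -0.102 and -0.081. Of the 15856 tested genes, 2511 were higher and 3934 lower with rescaling, and 3197 higher and 3961 lower with voom. The main fit had 4261 higher and 2735 lower.

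**Figure D4:**
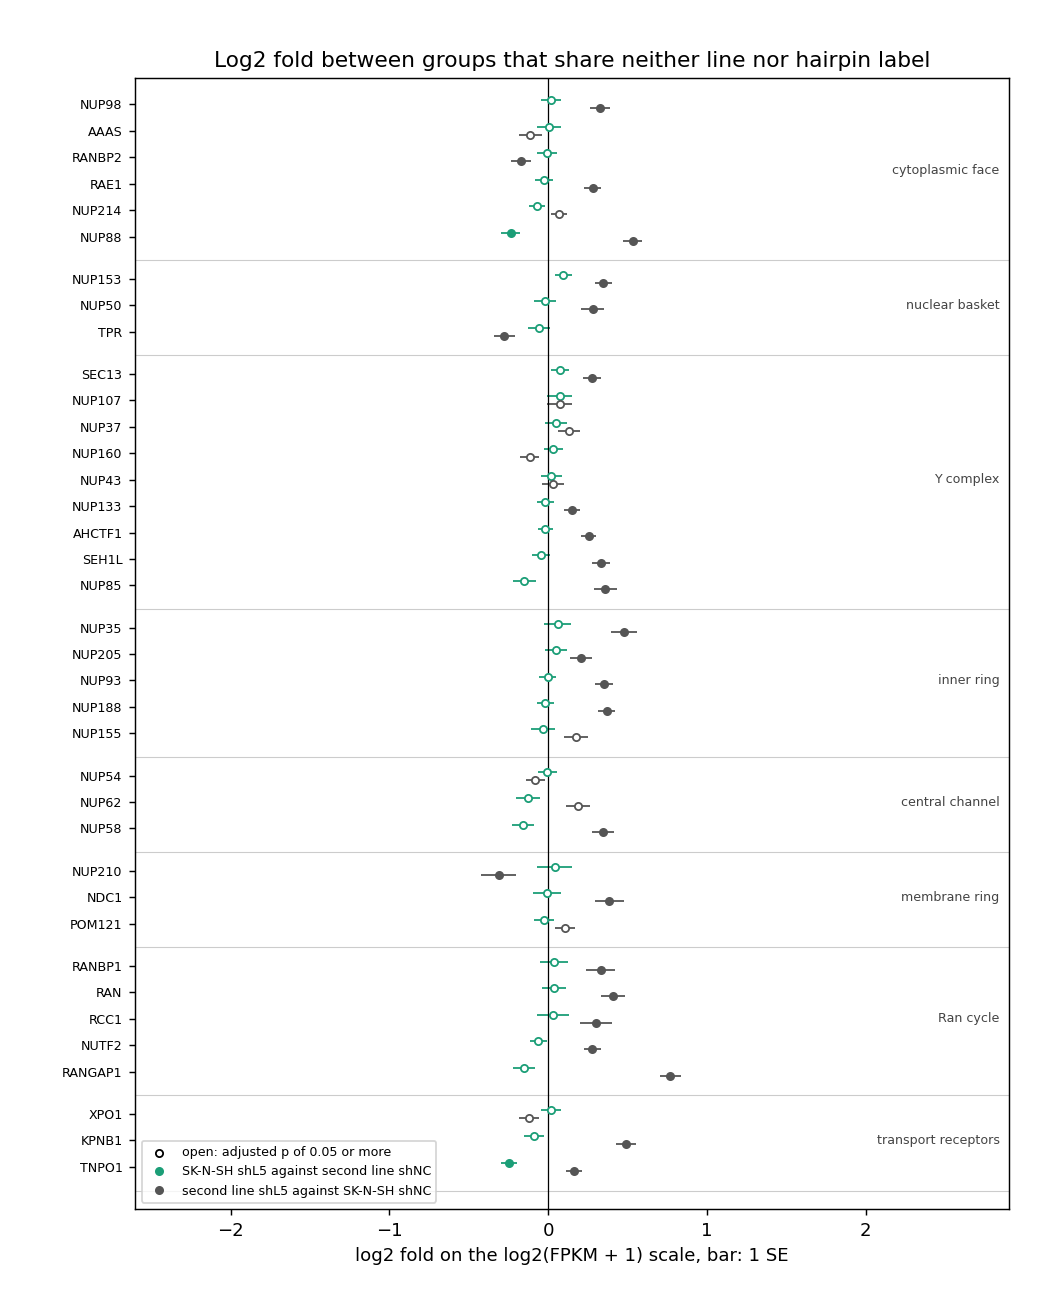
Log2 fold (x axis, on the log2(FPKM + 1) scale, bar: 1 SE) of each of the 37 members by role (y axis) for SK-N-SH shL5 against second line shNC (green) and second line shL5 against SK-N-SH shNC (grey), n = 3 libraries a group, open points not past an adjusted p of 0.05. The x axis spans the same range as in the plot by knockdown label, the green points stay within -0.25 and 0.096, and the grey points reach from -0.31 to 0.77.

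The difference between the labelled lines in the effect of the knockdown label, second line minus SK-N-SH, passed for 36 of 37 members. Of these, 30 were negative and 6 positive. Among all tested genes 84.9% passed, 43.1% negative and 41.8% positive. KPNB1 alone did not pass (-0.17, adjusted p = 0.08196, SE 0.087), but it did without SK-N-SH shNC replicate 1 (-0.24, adjusted p = 0.0151), with rescaling (-0.28) and with voom (-0.39). The most negative were NUP210 (-3.76, adjusted p = 4.73e-10, SE 0.16), RCC1 (-2.63), NUP205 (-2.62), RANBP1 (-2.45) and NDC1 (-2.31), and RANBP2 was at -1.73 (adjusted p = 3.02e-09, SE 0.088). The most positive were SEC13 (2.16, adjusted p = 1.64e-10, SE 0.080), AHCTF1 (1.18), SEH1L (0.88), POM121 (0.66) and NUP133 (0.33). Rescaling and voom shifted the median of all genes by -0.105 and -0.236 here and turned the split to 31 negative and 4 positive. Of the 15856 tested genes, 7050 were negative and 6332 positive with rescaling, and 7339 negative and 6065 positive with voom.

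Other genes of the pathway were taken from 3 lists, whose counts of called genes stand against 40.7% higher and 39% lower over all tested genes in SK-N-SH and 39.9% higher and 40.2% lower in the second line. Of 23 tested importin and exportin genes, 16 were higher and 3 lower in SK-N-SH shL5, and 6 were higher and 16 lower in second line shL5. XPO5, the exporter of microRNA precursors, CSE1L, which recycles importin alpha, and TNPO2 had the widest folds in SK-N-SH (1.41, 1.14 and 0.995). In the second line these were XPO5 (-1.09), the tRNA exporter XPOT (-1.02) and CSE1L (-0.903). The medians of this list were 0.43 and -0.33.

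Of 24 tested pore accessory and mRNA export genes, 14 were higher and 6 lower in SK-N-SH shL5, and 6 higher and 12 lower in second line shL5. NXT2, a cofactor of mRNA export receptors, stood apart at 28.6, 24.6 and 25.8 FPKM in SK-N-SH shNC, 1.74, 2.495 and 2.204 in SK-N-SH shL5, 1.34, 2.103 and 1.99 in second line shNC and 55.96, 57.7 and 56.6 in second line shL5. It was 12.3-fold lower in SK-N-SH shL5 (log2 fold -3.12, SE 0.11, adjusted p = 2.36e-10) and 31.4-fold higher in second line shL5 (log2 fold 4.37, SE 0.11, adjusted p = 1.20e-11). SUN2, which links the nuclear envelope to the cytoskeleton, had log2 folds of 1.501 and -1.67, and LBR, the lamin B receptor, was higher by 1.28 in SK-N-SH. TOR1A, a chaperone of the nuclear envelope lumen, was higher by 1.35 in the second line. Of 6 tested Ran-binding relatives, 4 were higher and 1 lower in SK-N-SH shL5 and 4 were lower in second line shL5, led by RCC2 (1.86 and -1.89), NEMP1 (1.65 and -1.57) and RANBP3 (0.56 and -0.34).

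Cell cycle genes moved with the members. The 10 G2/M genes summed to 170 to 244 FPKM in SK-N-SH shNC, 482 to 516 in SK-N-SH shL5, 532 to 542 in second line shNC and 190.4 to 270 in second line shL5. All 10 were called higher in SK-N-SH shL5, against 40.7% of tested genes, and 8 of 10 lower in second line shL5, against 40.2%. The 10 S phase genes summed to 151 to 203, 704 to 810, 780 to 806 and 216 to 296 FPKM in the same order, with 10 of 10 called in both. Their part in the members' levels, and that of the marker lists and of MYCN, was not tested. The members' own levels summed to 463 to 521, 825 to 877, 841 to 871 and 568 to 609 FPKM.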

How the data were processed

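RNA-seq of 12 libraries was analysed from the table of FPKM values that the authors deposited. The input was 3 µg of RNA and the kit NEBNext Ultra, per the labels' protocols; the submitters' processing notes name HISAT2 2.0.5, featureCounts 1.5.0-p3 and the mouse build mm10. All 58735 genes carry human Ensembl identifiers, and starts and ends of all 58735 equal GENCODE release 29, so coordinates are on GRCh38 and the mm10 entry was not used. Whether reads were counted by strand is not stated there. FPKM times length gave whole reads for 100% of values (tolerance 0.05 reads), with 15425460 to 19249018 reads per library, and the authors' FPKM denominators were proportional to median-of-ratios size factors, not to library totals, so levels are relative to those factors. Columns of no sample numbered 0.

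R 4.3.3 and limma 3.58.1 were used to test log2(FPKM + 1) for the 15856 genes with a mean of at least 0.5 FPKM, with 4 group means in 1 model, empirical Bayes moderation with an intensity trend, two-sided tests and Benjamini-Hochberg adjustment over all tested genes in each of 6 comparisons. The test was also run on data simulated from the SK-N-SH shNC profile with few genes changed. Far more genes differ in most comparisons here, so that run does not measure the error of these calls. Values written as "-fold" are ratios of mean FPKM, and log2 folds are the model's. Values of all 12 libraries are given for RANBP2, RAN and the members with the highest and lowest SK-N-SH fold in each role, plus AHCTF1 and NUP133 and, outside the members, NXT2 and SEC31A, which were added after their values were seen, and for TSPYL5 as a check of the labels. The difference between lines names the 5 extremes in each direction, and other lists up to 3 called genes. The members, the lists and the comparisons of groups that share neither line nor hairpin were chosen with earlier results of these data known. Alternatives were another pseudocount (0.1), no filter or a mean of at least 2 FPKM, rescaling each library to an equal sum, voom on recovered reads, only the groups compared, a replicate block, no trend, and leaving out each library. The COPII and GATOR2 lists were added after SEC13's values were seen. For the noradrenergic list, 1 marker is not reported here and its sum is over the other 9 genes.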

Additional observations from a re-analysis of the deposited data

Results flagged for a closer look

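The effect of the knockdown label differed between the labelled lines for 36 of 37 members by limma's test of the difference itself (second line effect minus SK-N-SH effect, log2, n = 3 libraries a group), as it did for 84.9% of all tested genes. Given here are RANBP2 and the 5 widest in each direction. Negative differences were -3.76 for NUP210 (adjusted p = 4.73e-10), -2.63 for RCC1, -2.62 for NUP205, -2.45 for RANBP1, -2.31 for NDC1 and -1.73 for RANBP2 (adjusted p = 3.02e-09). In these 6 every SK-N-SH shL5 library was above every SK-N-SH shNC library. Every second line shL5 library was below every second line shNC library. Positive differences were 2.16 for SEC13 (adjusted p = 1.64e-10), 1.18 for AHCTF1, 0.88 for SEH1L, 0.66 for POM121 and 0.33 for NUP133 (adjusted p = 0.00112). NUP133's difference did not pass with FPKM rescaled to an equal sum (0.24, adjusted p = 0.0508) or with voom (0.13, adjusted p = 0.169). TSPYL5 itself was higher in SK-N-SH shL5 (17.7 ± 0.629 FPKM, against 12.9 ± 0.649 in shNC, SD, n = 3), so the labelled lines cannot be read as a pair of equal knockdowns.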

How the results depend on the processing

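With 3 libraries a group and unknown culture origin, depth limits NUP210 most, at 139 reads in 1 library. Leaving out each library gave 33 to 34 members called in SK-N-SH shL5 against control, 31 to 32 in the second line, 33 to 34 between controls and 36 to 37 for the difference. Between SK-N-SH shL5 and second line shNC, 0 to 1 members were called, all lower. Between second line shL5 and SK-N-SH shNC, 20 to 26 were called, 19 to 25 higher and 1 to 3 lower. For the former pair, 1 member was called, and lower, in place of 2 with a pseudocount of 0.1, no filter, FPKM rescaled to an equal sum, only the groups compared (RANGAP1, neither of the 2), the replicate block and no trend. For the latter, lower members numbered 1 in place of 3 with no filter, only the groups compared and the replicate block. They numbered 7 with rescaling and with voom, while higher members fell from 23 to 15 with rescaling. The split of all 15856 tested genes also turned there, from 4261 higher and 2735 lower to 2511 and 3934 with rescaling. With voom it was 3197 and 3961. Under the replicate block RANBP2 (adjusted p = 0.0702) and NUP210 (0.0624) lost their call there, and NUP88 (0.0842) lost its call between SK-N-SH shL5 and second line shNC. The block changed no other count of members by over 1.5 times. Same-numbered libraries deviated together at correlations of -0.075 to 0.102, so the numbers were not taken to pair them. Among other genes, XPO6 in second line shL5 against control turned from 0.019 (not called) to -0.12 with rescaling (adjusted p = 0.028) and -0.14 with voom (adjusted p = 0.0141), and THOC5's difference between lines turned from 0.19 to -0.0039 with voom. No member's call reversed under any alternative run. The cause of these changes was not tested.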

Other observations

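SEC13 and SEH1L have roles outside the pore, so the other genes of those complexes were looked up after SEC13's values had been seen. In SK-N-SH shL5 against control, 1 of 10 COPII coat genes was higher (SEC23A, 0.28), 4 were lower (SEC31A, SEC24C, SAR1B and SEC24B) and 5 did not pass limma's test. In second line shL5, 7 were higher and 3 lower. Over all tested genes, 40.7% were higher and 39% lower in SK-N-SH shL5, and 39.9% and 40.2% in second line shL5. SEC31A, which builds the outer COPII cage with SEC13, was at 31.5, 34.3 and 33.8 FPKM in SK-N-SH shNC, 21.7, 21.3 and 21.6 in SK-N-SH shL5, 20.96, 20.1 and 19.5 in second line shNC and 32.4, 30.8 and 31.6 in second line shL5. It was high in the libraries where SEC13 was high, with log2 folds of -0.599 (adjusted p = 1.37e-07, SE 0.044) and 0.62 (adjusted p = 9.22e-08, SE 0.044). The other GATOR2 genes split, with MIOS at 0.42 and -0.45 (both called), WDR24 at -0.45 and 0.28 (both called) and WDR59 at 0.11 (not called) and -0.304 (called). WDR59 in SK-N-SH passed without shNC replicate 1 (0.13, adjusted p = 0.04003) and with voom (0.18, adjusted p = 0.0212).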
